A study of Mus musculus with 11 samples.

Results

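Heat shock proteins and chaperones were followed in mouse 3T3-L1 cells given 1 of 3 thiazolidinediones. The members are the probe sets annotated to a single gene of the HSP70, HSP110, HSP90 and small heat shock protein families, the J proteins, the cytosolic chaperonin, the Bag co-chaperones, St13, Stip1 and the heat shock factors, chosen by gene symbol and without the endoplasmic reticulum chaperones Hspa5 and Hsp90b1. The rule gave 89 of 12422 probe sets, which stand for 60 of the 8251 genes that have a probe set of their own. A further 2 probe sets annotated to several genes were left out. The name cytosolic, under which the set was drawn up, covers most members only: Hspa9, Dnaja3, Dnajc11 and Dnajc15 encode mitochondrial proteins, and Dnajb9, Dnajb11, Dnajc1, Dnajc3 and Dnajc10 encode proteins of the endoplasmic reticulum. The set is therefore called chaperone genes here.

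Treatment lasted 24 h in every group. Controls had 0.1% DMSO (3 arrays). Pioglitazone was given at 20 µM (2 arrays) and troglitazone at the same 20 µM (3 arrays), but rosiglitazone at 1 µM (3 arrays). Each sample of total RNA was read on 1 array. 3T3-L1 is a mouse embryonic fibroblast line that can be turned into adipocytes in culture, and the labels do not say at which stage the cells were treated. Thiazolidinediones activate the nuclear receptor PPARγ, which drives adipocyte gene expression. The labels do not say whether replicates were separate cultures, so p-values measure only the spread between these samples, which may be technical.

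Chaperones bind proteins that are not yet folded or have come unfolded. HSP70 proteins bind short exposed stretches in cycles of ATP hydrolysis, J proteins deliver substrates and start the hydrolysis, and exchange factors such as the HSP110 and Bag proteins end the cycle. HSP90 and the ring-shaped cytosolic chaperonin act on later folding steps, and small heat shock proteins hold unfolded proteins in a soluble state. Heat shock factors switch on many of these genes when unfolded proteins build up, by binding repeats of the unit GAA in alternating orientation.

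The sequences below show that unit upstream of members picked from those that carry it. They are a reference for the signals of the same genes that follow. The motif searched was GAANNTTC or TTCNNGAA, a pair of facing or opposed units, which covers both strands and can overlap with itself. Windows ran from 250 bases before to 50 bases after each RefSeq gene start (build GRCm38.p6). The motif occurred in 13 of the 50 member genes with a window (26.0%) and in 4587 of 27025 genes (17.0%), or 15.1% of all windows. The 10 members with no window used here include Hspa8, Hsp90aa1 and Hspa9. Stretches upstream of the start are given 5′ to 3′ on the gene's strand, with the motif in capitals: Hspa1a at chr17:34972237-34972276 (minus strand), Hspb1 at chr5:135887786-135887845 (plus), Dnaja1 at chr4:40722328-40722367 (plus), Dnajb6 at chr5:29735836-29735880 (plus) and Hsph1 at chr5:149636346-149636385 (minus).
Hspa1a: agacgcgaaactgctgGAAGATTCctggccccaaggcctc
Hspb1: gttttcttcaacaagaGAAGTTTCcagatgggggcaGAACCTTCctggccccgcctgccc
Dnaja1: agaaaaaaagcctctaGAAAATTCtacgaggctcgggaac
Dnajb6: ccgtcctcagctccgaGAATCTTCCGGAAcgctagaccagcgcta
Hsph1: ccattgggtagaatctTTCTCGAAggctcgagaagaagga

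The Hspa1a stretch lies with its motif 104 bases before the start, and the same 40 bases precede Hspa1b, its neighbour on chromosome 17. The 2 windows were identical at 296 of 300 positions (98.7%), so array probes for these near-identical genes may share signal and their separate values are uncertain. Dnajb6 carries 3 units in a row, read as 2 overlapping matches. The other members with a match were Bag3, Cct2, Cct5, Cct6a, Dnajb4, Dnajc10 and Hspb8. The heat-inducible Dnajb1 had a window and no match, so the motif did not mark every heat-inducible member. A match is a run of letters and was not tested as a binding site.

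Signals are the deposited intensities on a linear scale, already brought by the authors to a common trimmed mean on every array. The 25th percentile of all values, 73.7, served as a floor, and lower values were set to it before taking base 2 logarithms. Testing needed 2 or more arrays above the floor, which 11739 of the 12422 probe sets had. This held for 87 of the 89 member probe sets and all 60 genes; the 2 others were dim second probe sets of Dnajc1 and Dnajc3, each above the floor on 1 array. A gene is given by its tested probe set of highest mean log2 signal. By that probe set, 45 of the 60 genes were above the floor on every array. Hsf2 was above it on 3, Dnajb5 and Hspa14 on 5, Dnajb4, Hspa1l and Hspb1 on 6, Hspa1a and Hspa2 on 7, and Cct6b and Hsf4 on 8 of the 11 arrays. A change "rose" or "fell" where limma's moderated test gave an adjusted p under 0.05, with Benjamini-Hochberg adjustment over the 11739 probe sets. Fold changes come from a model with terms for group and for array set, and are log2 differences with 95% intervals.

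The array titles place replicates 1 and 2 of all groups in set 1 (8 arrays) and replicate 4 of vehicle, rosiglitazone and troglitazone in set 2 (3 arrays). Between 17.4% and 25.3% of probe sets lay at the floor on set 1 arrays, and between 29.6% and 33.0% on set 2 arrays. Rosiglitazone replicate 2 correlated least with the other arrays (median 0.833, against 0.874 to 0.896). The 3′ to 5′ signal ratio of beta-actin was 4.86 on pioglitazone replicate 2, between 1.79 and 2.27 on the other set 1 arrays and between 3.74 and 3.9 on set 2. The adipocyte markers Adipoq, Fabp4, Cidec and Lpl were above the floor on 11 of 11 arrays, as were the fibroblast or preadipocyte markers Dlk1, Col1a1, Col3a1, Thy1 and Pdgfra. Of the macrophage markers, Adgre1 and Ptprc were above it on 3 arrays, Cd68 on 7 and Csf1r on 11. The adipocyte marker Cidec, a lipid droplet protein, rose with all 3 drugs (log2 1.43, 1.16 and 1.07, limma adjusted p of 0.000138, 0.000234 and 0.000219), and the other 3 did not pass. The summed signal of the 4 ran from 73533 to 92002 with vehicle and 81011 to 95960 with pioglitazone. It was 80707 to 107203 with rosiglitazone and 66416 to 87450 with troglitazone, so the groups overlapped. Singly, Adipoq lay below vehicle on all troglitazone arrays (log2 -0.481). Fabp4 lay above vehicle on all pioglitazone and rosiglitazone arrays (0.315 and 0.586), and Lpl overlapped with every drug. The summed signal of the 5 fibroblast or preadipocyte markers ran from 5728 to 7195 with vehicle, 3009 to 3841 with pioglitazone, 3781 to 4282 with rosiglitazone and 2988 to 3859 with troglitazone, so every drug array lay below every vehicle array. Of these 5, Col1a1 and Col3a1, which encode fibrillar collagens, fell with troglitazone (log2 -1.27 and -1.29, limma adjusted p of 0.024 and 0.00459), and 0 of 5 passed with pioglitazone or rosiglitazone. The 4 macrophage markers summed to 740 to 2000 with vehicle and 670 to 3083 with the drugs, and 0 of 4 passed. Fewer cells of a type and less RNA per cell cannot be told apart in such bulk samples. The part of these markers in the results was not tested.

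Of the chaperone genes, Hspa9 rose with pioglitazone and with troglitazone, and no member fell with any drug. With pioglitazone 1 of 87 member probe sets rose, against 0.63% of all tested probe sets, and 0 fell, against 0.273%. With rosiglitazone 0 rose and 0 fell, against 0.784% and 0.571%, where 4 of 60 genes had an unadjusted p under 0.05. With troglitazone 1 rose, against 0.775%, and 0 fell, against 0.554%. For the mean of the 3 drugs 1 rose, against 1.28%, and 0 fell, against 0.86%. The member that rose was Hspa9 each time. These comparisons share the 3 vehicle arrays, so they are not independent of each other.

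Member genes with an unadjusted p under 0.05 numbered 6 of 60 with pioglitazone (10%, against 10.9% of all 7962 genes), 4 with rosiglitazone (6.67%, against 11.7%), 3 with troglitazone (5.0%, against 9.26%) and 3 for the mean of the drugs (5.0%, against 11.9%). The shares among members thus lay below those among all genes in all 4 comparisons. The median member log2 change was 0.14 with pioglitazone, 0.13 with rosiglitazone, 0.10 with troglitazone and 0.11 for the mean of the drugs, where the medians of all genes were -0.08, -0.01, -0.03 and -0.04. The member medians moved with single arrays. With pioglitazone the member median lay below 0 without pioglitazone replicate 2 (-0.06, all genes -0.09) or vehicle replicate 2 (-0.03, all genes -0.07). It was 0.02 or 0.06 without vehicle replicate 1 or 4 and 0.21 without pioglitazone replicate 1. With rosiglitazone it was 0.04 and 0.07 without vehicle replicate 4 and 2, and between 0.06 and 0.08 without any 1 of its own arrays. With troglitazone it was 0.00, 0.01 and 0.03 without vehicle replicate 2, vehicle replicate 4 and troglitazone replicate 4. For the mean of the drugs it was 0.02 without pioglitazone replicate 2, 0.05 and 0.07 without vehicle replicate 4 and 1, and 0.07 without troglitazone replicate 4. Members above 0 numbered 31, 37, 34 and 34 of 60 in the same order, or 51.7%, 61.7%, 56.7% and 56.7%, beside 43.5%, 49.2%, 47.2% and 45.8% of all genes. Centring arrays on their medians moved the median of all genes by 0.15 with pioglitazone, and the member median was then 0.32. Of all calls with pioglitazone 69.8% were higher, 87.2% after median centring and 49.4% after quantile normalisation.

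**Figure D1:**
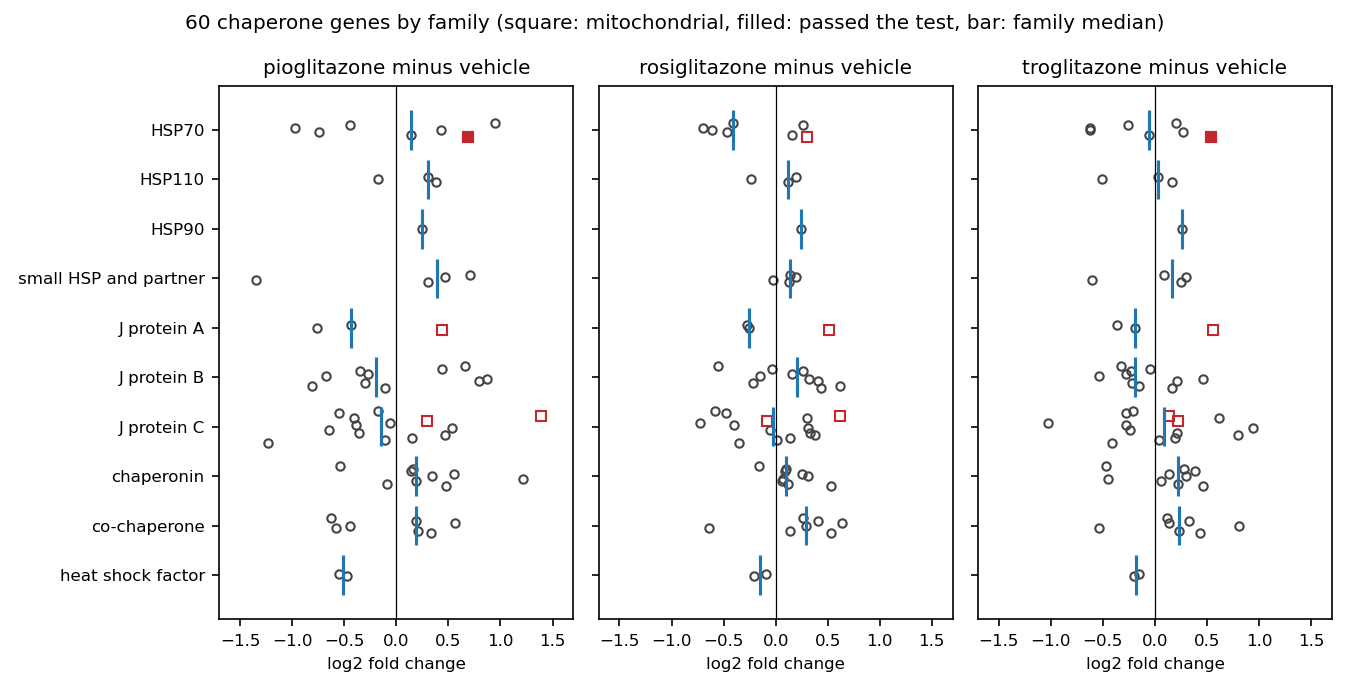
Log2 fold changes over vehicle of the 60 chaperone genes, 1 panel per drug, with genes grouped by family on the vertical axis. Squares are the mitochondrial members, filled where the test was passed, circles are the other genes, and blue bars are family medians; Hspa9 is filled in the pioglitazone and troglitazone panels, and the other genes lie on both sides of 0.

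Signals that did not overlap between a drug and vehicle were found for 21 of 87 member probe sets with pioglitazone (24.1%, against 22.1% of all probe sets), 6 with rosiglitazone (6.90%, against 11.8%) and 9 with troglitazone (10.3%, against 12.2%). Of these, 11 lay above vehicle and 10 below with pioglitazone, 4 above and 2 below with rosiglitazone, and 8 above and 1 below with troglitazone. The 8 with troglitazone were Hspa9, Dnaja3, Bag2, Cct4, Cct6a, Stip1, Dnajc13 and Dnajc21, and the 1 below was Dnaja1. With rosiglitazone and troglitazone the shares among members were below those of all probe sets, and with pioglitazone, which has only 2 arrays to separate, slightly above.

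The limits these arrays set on a change were narrower in the brighter groups of members. The 95% interval for the mean of the drugs lay within 2-fold in both directions for 32 of 60 members (53.3%, against 46.2% of all genes). Among the 20 members of highest mean signal this held for 18, with a median half-width of 0.35 on the log2 scale. Among the middle 20 it held for 11, with 0.64, and among the 20 dimmest for 3, with 0.95. The heat shock factors Hsf2 and Hsf4, the dimmest members, are among these 3. Values set to the floor narrow such an interval, so theirs set no firm limit on a change. For single drugs the interval lay within 2-fold for 19 members with pioglitazone and for 29 each with rosiglitazone and troglitazone. Both counts of 29 again include Hsf2 and Hsf4. A change of less than 2-fold in a dim member such as Hspa1a, Hspb1 or Dnajb1 was not detectable with this number of arrays. Larger fitted changes in dim members also did not pass, such as 1.39 for Dnajc11 with pioglitazone. The intervals are not adjusted for the number of probe sets, while the calls are.

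**Figure D2:**
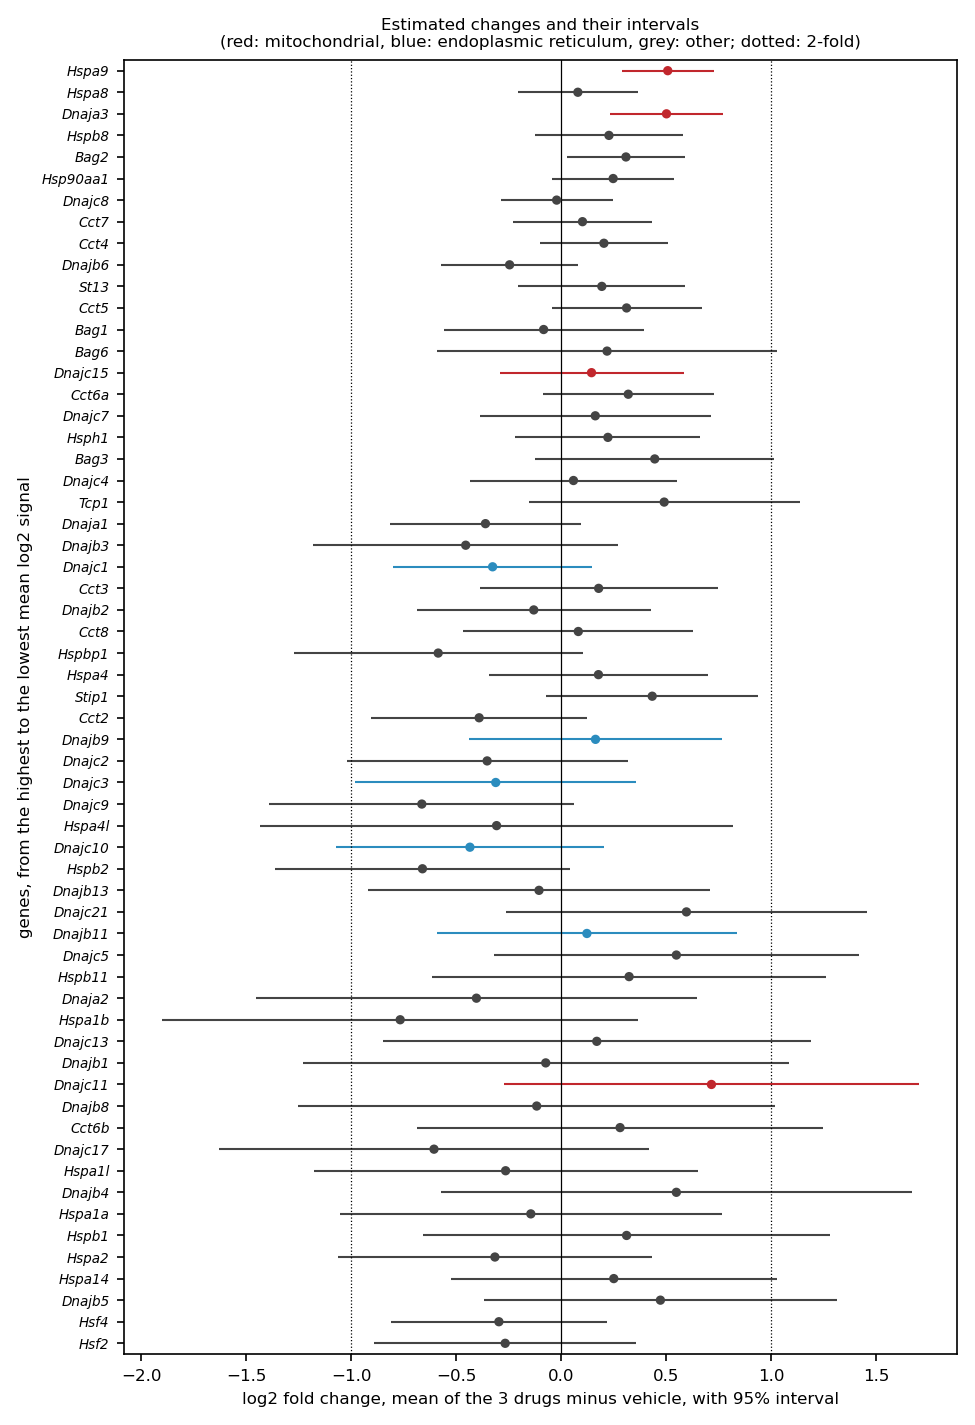
Log2 change of each of the 60 genes for the mean of the 3 drugs minus vehicle, with its 95% interval, ordered from the highest mean log2 signal at the top. Intervals widen downward, from a median half-width of 0.35 in the top 20 to 0.95 in the bottom 20, and those of Hspa9, Dnaja3 and Bag2 exclude 0 before adjustment.

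Hspa9 encodes the HSP70 of the mitochondrial matrix, which pulls imported proteins through the inner membrane and folds them. Its signal was 10342, 9712 and 11134 on vehicle replicates 1, 2 and 4 (mean 10396 ± 712, SD, n = 3). It was 14766 and 15794 with pioglitazone, 11728, 10666 and 16596 with rosiglitazone, and 13407, 13892 and 18427 with troglitazone. All pioglitazone and troglitazone arrays lay above all vehicle arrays, while rosiglitazone replicate 2 lay inside the vehicle range. In limma's fit Hspa9 rose 1.61-fold with pioglitazone (log2 0.69, interval 0.39 to 0.98, adjusted p = 0.0289) and 1.45-fold with troglitazone (log2 0.54, 0.28 to 0.80, adjusted p = 0.0423). With rosiglitazone, at a lower dose, the log2 difference was 0.30 (0.04 to 0.56, adjusted p = 0.367 in limma). For the mean of the drugs it was 0.51 (0.29 to 0.72, adjusted p = 0.0141 in limma).

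On the same arrays the summed fibroblast or preadipocyte markers were lower with every drug, by the values given above, and their part in the Hspa9 result was not tested.

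The sign of the Hspa9 change was kept under all 24 alternative settings run, and its call was not. Across them the pioglitazone difference stayed between 0.44 and 0.87 and the troglitazone difference between 0.34 and 0.65. The pioglitazone call was lost on leaving out any single array except rosiglitazone replicate 2, with limma adjusted p from 0.0559 to 0.122. The troglitazone call was lost without any vehicle array, any troglitazone array, or rosiglitazone replicate 1 or 4, with limma adjusted p from 0.0602 to 0.303. Leaving out vehicle replicate 2, or replicate 4 of vehicle, rosiglitazone or troglitazone, ended the call for the mean of the drugs, with limma adjusted p from 0.0534 to 0.164. Of 13 other alternatives, 8 ended the pioglitazone call, 7 the troglitazone call and 4 that for the mean, with limma adjusted p up to 0.756, 0.736 and 0.523. Within set 1 the pioglitazone difference was 0.61, the rosiglitazone difference 0.16 and the troglitazone difference 0.45. Within set 2, with 1 array a group, the rosiglitazone difference was 0.58 and the troglitazone difference 0.73. The test of the difference between sets called 0 of 11739 probe sets for either drug in limma, and had an unadjusted p under 0.05 for 3 of 87 member probe sets with rosiglitazone (3.45%, against 3.72% of all) and 0 with troglitazone (against 2.45% of all).

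Dnaja3 encodes the J protein that works with Hspa9 in mitochondria. Its signal was 3806, 2825 and 4070 on vehicle arrays 1, 2 and 4. It was 5183 and 3881 with pioglitazone, 4862, 4844 and 5348 with rosiglitazone, and 4795, 4764 and 6096 with troglitazone. Rosiglitazone and troglitazone arrays all lay above vehicle, and pioglitazone replicate 2 fell within the vehicle range. The log2 differences were 0.44, 0.51 and 0.56 for pioglitazone, rosiglitazone and troglitazone, and 0.50 (interval 0.23 to 0.77, adjusted p = 0.0594 in limma) for the mean of the drugs. The mean therefore missed the threshold. It passed under 5 of 24 alternatives, with limma adjusted p as low as 0.0273 without pioglitazone replicate 2 and as high as 0.435 without another array.

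**Figure D3:**
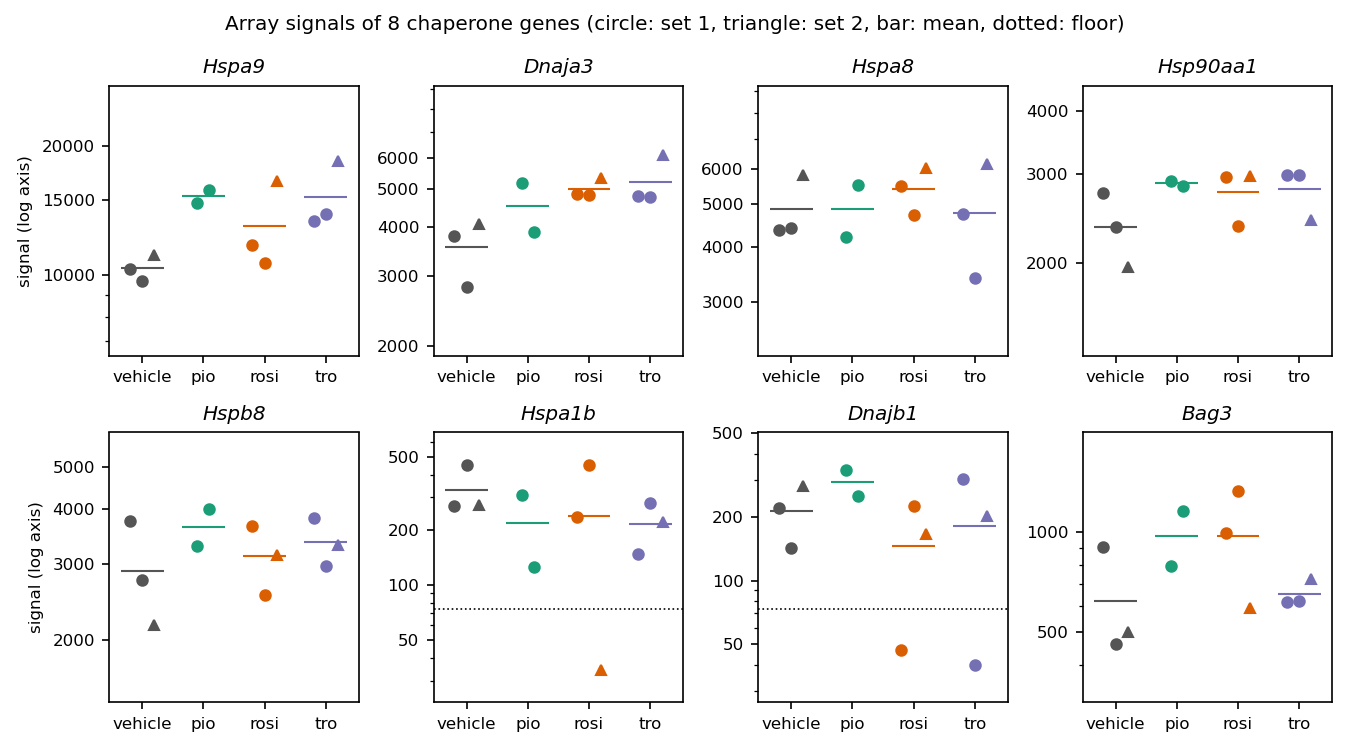
Array signals, on a log axis, of 8 chaperone genes by group (pio, rosi and tro are the drugs), with circles for set 1, triangles for set 2 and bars for group means. For Hspa9 both pioglitazone and all 3 troglitazone arrays lie above the vehicle arrays, whose highest signal is 11134. For Hspa8, and for the brighter probe set of Hspb8, which is the one shown, the groups overlap.

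The other mitochondrial members, Dnajc15, a J protein of the inner membrane, and Dnajc11, a membrane organising protein, did not pass. Dnajc15 had log2 differences of 0.30, -0.08 and 0.22 for pioglitazone, rosiglitazone and troglitazone. Dnajc11 stood at 479.6 and 299.8 with pioglitazone and at 171, 125 and 77.9 with vehicle, a log2 difference of 1.39 (0.03 to 2.75, adjusted p = 0.487 in limma). Over the 4 mitochondrial members the median change for the mean of the drugs was 0.50, with 1 of 4 called, over the 5 members of the endoplasmic reticulum -0.31, with 0 called, and over the other 51 genes 0.08, with 0 called. With 1 array left out, the mitochondrial median lay between 0.45 and 0.60. That of the endoplasmic reticulum lay between -0.40 and -0.11, the latter when vehicle replicate 1 was omitted, and that of the other genes between 0.01, when pioglitazone replicate 2 was omitted, and 0.13. The compartments were assigned with these results known, so the medians are a description.

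Mitochondrial chaperones and proteases outside the member rule were read from a separate list, of which 6 genes were tested. That list too was drawn up with earlier results of these data known. Lonp1, the matrix protease that degrades misfolded proteins, rose with each drug: by 0.94 with pioglitazone, 0.77 with rosiglitazone and 1.20 with troglitazone (limma adjusted p of 0.0138, 0.0164 and 0.000316). Its signal was 3702, 2567 and 3999 with vehicle and at least 4657 on each drug array, so the groups did not overlap. The pioglitazone call was lost without vehicle replicate 2 or 4 or either pioglitazone array (limma adjusted p up to 0.105), and the rosiglitazone call without vehicle replicate 2 or 4 or rosiglitazone replicate 2 or 4 (up to 0.116). The troglitazone call was kept on leaving out each array. Of 13 other alternatives, 7 ended the pioglitazone call (limma adjusted p up to 0.45), 6 the rosiglitazone call (up to 0.328) and 3 the troglitazone call (up to 0.124). For the mean of the drugs Lonp1 rose by 0.97 (adjusted p = 0.000421 in limma), a call lost in 1 of 24 alternatives, without the intensity trend (0.107). Hspd1 and Hspe1, which form the mitochondrial chaperonin, had differences of 0.50 and 0.64 for the mean of the drugs (limma adjusted p of 0.0772 and 0.097). Grpel1, the exchange factor of Hspa9, had 0.59 (0.113). The other genes tested were Clpp at 0.19 and Timm44 at 0.10, which did not pass. The list's median for the mean of the drugs was 0.55, and 0.36 without vehicle replicate 4.

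**Figure D4:**
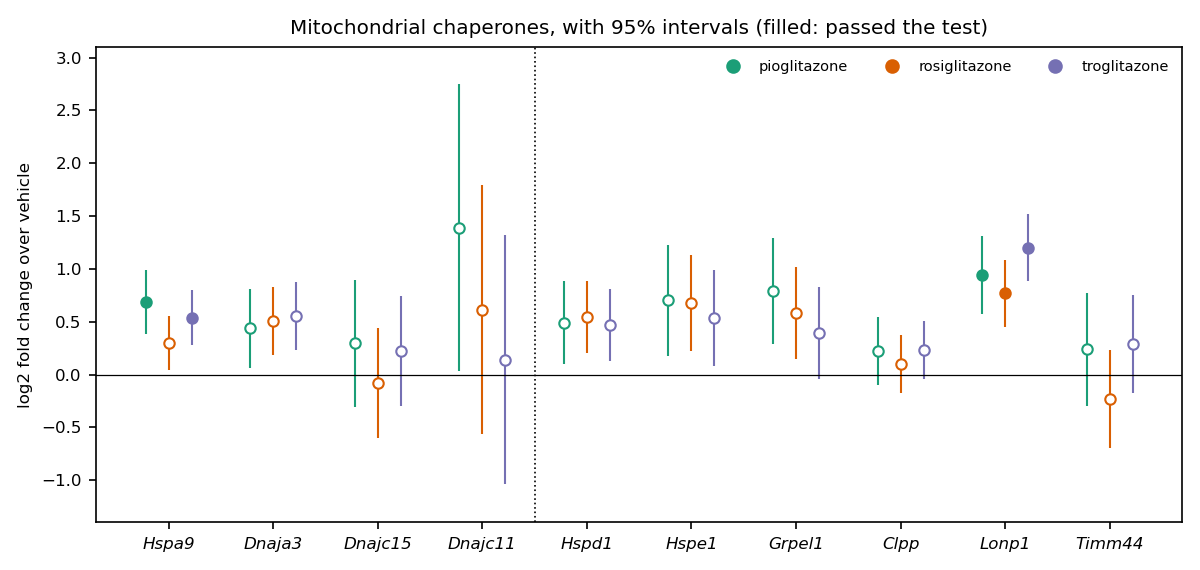
Log2 fold change over vehicle, with 95% intervals, of the 4 mitochondrial members (left of the dotted line) and of 6 listed mitochondrial chaperones and proteases (right), for each drug. Filled points passed the test; they are Hspa9 with pioglitazone and troglitazone and Lonp1 with all 3 drugs, and the Dnajc11 intervals are the widest.

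The cytosolic HSP70 genes did not pass with any drug. Hspa8, the constitutive HSP70 that also strips clathrin from vesicles, had signals of 4371, 4410.0 and 5819 with vehicle and 4200 and 5512 with pioglitazone. They were 5487, 4725 and 6012 with rosiglitazone and 4756, 3405 and 6149 with troglitazone. The groups overlapped, and the log2 differences were 0.14, 0.16 and -0.06, with 0.08 (-0.21 to 0.36) for the mean of the drugs.

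Hspa1b, a stress-inducible HSP70, had signals of 269, 452 and 273 with vehicle, 308 and 125 with pioglitazone, 233, 449 and 34.2 with rosiglitazone and 148, 279 and 219 with troglitazone. The fitted differences were -0.98, -0.70 and -0.63, with an interval for the mean of -1.90 to 0.37 (adjusted p = 0.696 in limma). A single rosiglitazone array lay under the floor, and the groups overlapped. Hspa1a, dim on 4 of 11 arrays, had differences of -0.44, 0.27 and -0.26. Hspa1l and Hspa2, which are most abundant in testis, and Hspa14, which works at the ribosome, were above the floor on 5 to 7 arrays and did not pass.

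The HSP110 genes encode exchange factors that also hold unfolded proteins. Hsph1 had differences of 0.38, 0.12 and 0.17 for pioglitazone, rosiglitazone and troglitazone. Hspa4 has 5 tested probe sets, whose differences for the mean of the drugs ran from -0.27 to 0.37, with both signs for each drug. Hspa4l had -0.17, -0.24 and -0.51. None of the 3 passed in limma's test.

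Hsp90aa1, the heat-inducible form of cytosolic HSP90, had signals of 2755, 2351 and 1961 with vehicle, 2901 and 2846 with pioglitazone, 2964, 2371 and 2969 with rosiglitazone and 2987, 2988 and 2434 with troglitazone. Both pioglitazone arrays lay above vehicle, while the other drugs overlapped with it. The log2 differences were 0.24, 0.24 and 0.26, with 0.25 (-0.04 to 0.54) for the mean of the drugs. A dim second probe set of the gene read 393 and 36.2 on the pioglitazone arrays and between 39.1 and 86.3 with vehicle. It passed with pioglitazone only where pioglitazone replicate 2 and rosiglitazone replicate 2 were both left out, which leaves 1 pioglitazone array. Hsp90ab1, the constitutive form, was not analysed here.

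The small heat shock proteins did not pass. Hspb8, the partner of Bag3 in removing misfolded proteins, had a signal of 3753, 2747 and 2165 with vehicle and between 2538 and 3989 across the 8 drug arrays. The differences were 0.30, 0.13 and 0.25. Its second, dimmer probe set had 0.29, 1.13 and 0.72, with all rosiglitazone arrays above vehicle, and did not pass either. Hspb1, the classical small heat shock protein of the actin cytoskeleton, lay above the floor on 6 arrays, with differences of 0.71, 0.14 and 0.09 and wide intervals. Hspb2, a muscle form, read 656, 444 and 472 with vehicle and 317 and 182 with pioglitazone, a log2 difference of -1.35 (-2.31 to -0.38, adjusted p = 0.256 in limma). Its second, dimmer probe set had 0.12 there. Hspb11, which belongs to the transport complex of cilia, had 0.47, 0.20 and 0.30.

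The J proteins were the largest family, with 27 genes, and 0 passed. After Dnaja3 the smallest limma adjusted p in the family for the mean of the drugs was 0.535, for Dnajc9. The medians for the mean of the drugs were -0.36 over the 3 genes of type A, -0.09 over the 10 of type B and 0.02 over the 14 of type C, with ranges of -0.40 to 0.50, -0.46 to 0.55 and -0.66 to 0.72. The type A median was -0.06 without pioglitazone replicate 1, and those of types B and C changed sign, type B to 0.06 when vehicle replicate 1 was omitted, and type C to -0.05 when pioglitazone replicate 1 was. Dnaja1, a cytosolic partner of Hspa8, read 914, 769.8 and 819 with vehicle and 657, 679 and 601 with troglitazone. These did not overlap, and the log2 difference was -0.37 (-0.91 to 0.18, adjusted p = 0.808 in limma). With pioglitazone and rosiglitazone it was -0.44 and -0.28.

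Dnajb1, the main heat-inducible J protein, was under the floor on 2 arrays and had 0.66, -0.56 and -0.32, with intervals wider than 2-fold on either side. Dnajb6, which keeps aggregation-prone proteins soluble, had -0.30, -0.21 and -0.22, and its pioglitazone signals of 1275 and 1676 overlapped with vehicle at 1668 to 2242. Dnajb9 and Dnajc3, partners of the endoplasmic reticulum HSP70, had -0.11, 0.43 and 0.17, and -0.64, -0.05 and -0.24. A second probe set of Dnajb9 had -0.26 with troglitazone, and the 3 of Dnajc3 ran from -0.73 to 0.07 with rosiglitazone. The lowest single-drug value of the family was Dnajc9, a histone-binding J protein, at -1.23 with pioglitazone (-2.23 to -0.23, adjusted p = 0.353 in limma), where replicate 1 read 161 and replicate 2 read 451.

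The cytosolic chaperonin folds actin, tubulin and other large proteins and is a double ring of subunits encoded by Tcp1 and the Cct genes, with Cct6b as a form found in testis. Of the 9 genes 8 lay above 0 for the mean of the drugs, beside 45.8% of all genes, and 0 of 9 were called. Their median was 0.20 (0.13 without vehicle replicate 2). Cct3, Cct6b, Cct7 and Cct8 changed sign for the mean under 1 or more alternatives. Tcp1 had differences of 0.47, 0.53 and 0.47, Cct5 0.55, 0.25 and 0.13, and Cct6a 0.35, 0.32 and 0.30. Cct3, Cct4, Cct7 and Cct8 lay between -0.09 and 0.38 with every drug. Cct2 lay below 0 throughout, at -0.54, -0.16 and -0.47. The intervals for the mean were within 2-fold for 7 of the 9. Second probe sets of Tcp1 and Cct6a had the opposite sign, at -0.05 and -0.21 for the mean. That of Cct5 had -0.015 with rosiglitazone and -0.227 with troglitazone, and the 3 of Cct3 had both signs with rosiglitazone.

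Cct4 read 1439, 1615 and 1717 with vehicle, 1866 and 1612 with pioglitazone, 1512, 1942 and 1639 with rosiglitazone, and 1964, 2208 and 2034 with troglitazone. The troglitazone arrays lay above vehicle, and the log2 difference of 0.38 (0.02 to 0.75) had an adjusted p of 0.558 in limma. Cct6b was seen on 8 arrays, at 289.6 and 266 with pioglitazone and 56.7, 41.1 and 146 with troglitazone, where the first and second lay under the floor of 73.7.

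The co-chaperones included exchange factors and adaptors, and 0 of 7 were called with any drug. Stip1, which links HSP70 to HSP90, read 506, 543 and 387 with vehicle and 677, 657 and 583 with troglitazone, above vehicle throughout. Its differences were 0.34, 0.53 and 0.43, with 0.43 (-0.07 to 0.94) for the mean. St13, which steadies HSP70 bound to its substrate, had 0.21, 0.14 and 0.23, and its second probe set 0.54, -0.10 and 0.16. Hspbp1, an exchange factor, had -0.58, -0.65 and -0.53.

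Bag1, an exchange factor that ties HSP70 to the proteasome, read 503 on pioglitazone replicate 1 and between 1177 and 1880 on the other 10 arrays. Its pioglitazone difference was -0.63, and it passed only where pioglitazone replicate 2 was left out, leaving that single array. Bag2 had 0.19, 0.41 and 0.33, with second probe sets of both signs. Bag3, which steers misfolded proteins to autophagy and is heat-inducible, had 0.57, 0.64 and 0.13, while its second probe set had -0.77 with pioglitazone. Bag6, which guards membrane proteins before insertion, had -0.45, 0.29 and 0.81. Its 4 tested probe sets had both signs with each drug, from -0.868 to 0.125 with pioglitazone and from -0.161 to 0.807 with troglitazone.

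Hsf2, a heat shock factor of development and stress, was above the floor on 3 arrays, and Hsf4, known from the lens, on 8. Their differences lay between -0.55 and -0.10 with every drug. Hsf1, the main factor of the heat response, was not analysed here. Of the 13 members with the motif upstream or just after their start, 0 were called with any drug. Of the 37 members with a window and no match, 0 were called as well. Hspa9, the only member called, has no window here, so these counts cannot tell members with the motif from the others. Differences for the mean of the drugs ran from -0.77 to 0.55 in the 13 and from -0.66 to 0.60 in the 37.

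Troglitazone and pioglitazone are the only pair given at the same dose, 20 µM for 24 h. Both hold the thiazolidinedione ring, and they differ in the other end of the molecule, which in troglitazone is the ring head of vitamin E and in pioglitazone an ethylpyridine. Between them 0 of 87 member probe sets differed in limma's test, against 0.0341% of all probe sets, and 3 of 60 genes had an unadjusted p under 0.05, 5.0% against 6.78% of all genes. This 1 pair was tested. The interval of the difference lay within 2-fold for 26 of 60 members, including Hspa9 at -0.15 (-0.45 to 0.15), Hspa8 at -0.19 (-0.59 to 0.20) and Hsp90aa1 at 0.01 (-0.39 to 0.42). For the other members the interval allowed a difference of 2-fold or more, so the 2 compounds cannot be called alike there. Bag6 had 1.26 (0.14 to 2.37) and Dnajc11 -1.25 (-2.61 to 0.11), with limma adjusted p of 0.709 and 0.84. The Bag6 value is that of its brightest probe set, and its 4 tested probe sets had both signs against vehicle with each drug. Cct6b was fitted at -1.67 (-3.0 to -0.34, adjusted p = 0.65 in limma), but 2 of its 3 troglitazone arrays lay under the floor, so the size of that difference was not measured on both sides.

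Outside the member rule, the lists of endoplasmic reticulum chaperones (11 tested) and other stress-response genes (10 tested) held 4 genes that rose with troglitazone. Among all tested probe sets 0.775% rose. The lists were drawn up with earlier results of these data known, so their counts are a description. Among 11 tested endoplasmic reticulum chaperones 1 rose with troglitazone: Ero1a, the oxidase that supplies disulfide bonds, by 1.46 (adjusted p = 3.05e-05 in limma), from 12009, 10401 and 8627 with vehicle to 25194, 32555 and 27598. It was also 1.40 higher with troglitazone than with pioglitazone (adjusted p = 0.00148 in limma), a call lost without pioglitazone replicate 1 (0.0542) and in 6 of 13 other alternatives (up to 0.618). The troglitazone call against vehicle was kept on leaving out each array and lost in 2 of those 13 (limma adjusted p up to 0.0588). With rosiglitazone all arrays also lay above vehicle, at 0.53 (adjusted p = 0.0851 in limma), while pioglitazone overlapped with it, at 0.07. For the mean of the drugs Ero1a rose by 0.69 (adjusted p = 0.00344 in limma), a call lost in 5 of 24 alternatives (up to 0.233). Hspa5, the HSP70 of that compartment, had 0.92 with troglitazone (adjusted p = 0.0673 in limma). Hsp90b1 rose by 0.55 for the mean of the drugs (adjusted p = 0.0374 in limma), a call lost on leaving out any array but rosiglitazone replicate 1 (up to 0.298) and in 6 of 13 other alternatives (up to 0.409).

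Of 10 other stress-response genes, on a list also drawn up with earlier results known, 3 rose with troglitazone, against 0.775% of all tested probe sets. They were Ppp1r15a, which reverses the stress block on translation, at 2.06, and the metal-binding Mt1 and Mt2 at 0.89 and 1.29, with limma adjusted p of 0.000104, 0.00205 and 6.13e-05. These 3 calls held on leaving out each array in turn. Of 13 other alternatives the Mt1 call was lost in 4 (limma adjusted p up to 0.237), the Mt2 call in 2 (up to 0.0729) and the Ppp1r15a call in 0. With pioglitazone and rosiglitazone 0 of the 10 passed. Ppp1r15a read 411.8, 500.7 and 760.7 with vehicle, 997.5 and 832.7 with pioglitazone, 903.7, 929.2 and 1040.1 with rosiglitazone, and 1745.8, 2456.3 and 2628.1 with troglitazone. Every drug array thus lay above every vehicle array. Its log2 difference was 0.90 with pioglitazone (adjusted p = 0.159 in limma) and 0.83 with rosiglitazone (adjusted p = 0.103 in limma), and it rose by 1.26 for the mean of the drugs (adjusted p = 0.00128 in limma). Between troglitazone and pioglitazone it differed by 1.16 (0.61 to 1.71, adjusted p = 0.257 in limma), which did not pass. Mt2 was 1.12 higher with troglitazone than with pioglitazone (adjusted p = 0.00851 in limma), a call lost in 13 of all 24 alternatives (up to 0.618), 5 of which leave out 1 array. Hmox1, the haem-degrading enzyme, rose by 0.90 for the mean of the drugs (adjusted p = 0.0496 in limma), a call lost without any array but troglitazone replicate 2 (up to 0.380) and in 10 of 13 other alternatives (up to 0.515). Of 13 further genes, mostly co-chaperones, and 6 prefoldin or related genes 0 passed in any comparison. The 13 also take in Hsbp1 and the small heat shock proteins Cryaa and Cryab. Medians for the mean of the drugs were 0.10 (-0.10 without pioglitazone replicate 1) and -0.23 (-0.47 without vehicle replicate 4).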

How the data were processed

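The members, the gene lists and the tests were chosen with earlier results of these data known. Total RNA of 11 samples was measured on 1 array each, and the deposited values are signal intensities that the authors had scaled: after trimming 2% of the values from both ends, array means ran from 500.289 to 500.433. Which array software was used is not given in the sources used here. Symbols came from the platform annotation, in which 10833 probe sets have 1 gene, 396 several and 1193 none; 66 control probe sets were set aside.

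The differences were computed with limma 3.58.1 in R 4.3.3, by a linear model of group and set on all 11 arrays (6 residual degrees of freedom) with an intensity trend in the variance prior, two-sided, adjusted by Benjamini-Hochberg within each contrast. The script was tested on simulated data. Members named with values are those that pass in any contrast, a list of central genes of each family, and passing genes of the other lists, up to 4 by smallest p; Bag2, Bag6, Dnaja3, Dnajb6, Dnajc9, Dnajc11, Dnajc15, Hspa4l and Hspb11 were added after their values were seen. Promoter windows came from RefSeq. The number of arrays limits the precision. Alternatives varied the normalisation, the floor, the filter, the model terms and the arrays.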

Additional observations from a re-analysis of the deposited data

How the results depend on the processing

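Counts of members called, which were 1 with pioglitazone, 0 with rosiglitazone, 1 with troglitazone, 1 for the mean of the drugs and 0 between troglitazone and pioglitazone, were recomputed under 24 alternatives. With rosiglitazone the count was 0 under each. With pioglitazone and with troglitazone it was 0 after quantile normalisation, with no filter, when only set 1 or only the groups compared were fitted, and when the set term or the intensity trend was dropped, and with pioglitazone also with the beta-actin ratio as a covariate. Without the 2 arrays that stood apart (rosiglitazone replicate 2 and pioglitazone replicate 2) it was 2 with pioglitazone (Bag1 and Hsp90aa1), 0 with troglitazone and 1 between the 2 drugs (Hsp90aa1). For the mean of the drugs it was 0 after quantile normalisation, when only set 1 was fitted, and without the set term or the intensity trend, and 2 (Dnaja3 and Hspa9) after median centring, with the floor at the 50th percentile and with the beta-actin ratio. Leaving out each array in turn gave 0 to 1 with pioglitazone, 0 to 1 with troglitazone and 0 to 2 for the mean. The causes were not tested.

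Same-numbered arrays correlated between -0.10 and 0.10 in their deviations from the group means in set 1 and between 0.29 and 0.36 in set 2, so the numbers were not taken to pair samples beyond the set. A replicate block in place of the set term gave 1 member with pioglitazone, 1 with troglitazone and 2 for the mean of the drugs, and changed no other count. Of the members not called, 26 of 59 with pioglitazone, 30 of 60 with rosiglitazone and 22 of 59 with troglitazone changed sign under 1 or more alternatives. Of 19 genes with several tested probe sets, 6 had both signs with pioglitazone, 11 with rosiglitazone and 12 with troglitazone. Dim signal limits what can be seen in 15 members that lay under the floor on 1 or more arrays.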
